A study of Mus musculus with 22 samples.

Results

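Genes of antibodies, B cells and plasma cells were followed in the liver of 22 mice, as the set Igha, Igkc, Jchain, Blnk, Ighm, Cd79a, Cd79b and Pou2af1. Of these 8 genes, 7 have a row among the 13392 genes of the deposited table, and the expression of Cd79a was not analysed here. The set was chosen from measured values: earlier results of the same comparisons and of the same runs of title numbers were known when it was drawn up. The members' own differences between groups are therefore given as a description, with their standard errors and no p-value. Where the text counts members past the threshold of the fit, it gives the share of all genes beside the count and reads nothing from either.

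The study asked what nintedanib, a kinase inhibitor, does to gene expression in a chemical model of liver fibrosis and hepatocellular carcinoma in male C57BL/6J mice. Control mice (3) received saline and oil and are labelled as vehicle-treated animals with healthy liver. Model mice received 1 dose of N-nitrosodiethylamine (DEN), a mutagen, and then carbon tetrachloride (CCl4), a hepatocyte poison, every week. Once fibrosis was established they were randomised to vehicle (9 mice) or to nintedanib at 50 mg/kg (10 mice), and the samples used here were taken after 5 weeks of that treatment. RNA came from 20 mg of frozen non-tumour liver of each mouse, and the mice's ages are not given in the sources used here. Both model groups carry the DEN and CCl4 injury, so the drug comparison is made within injured liver.

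B cells carry an antibody on their surface, joined to a pair of signalling subunits, and pass on its signal through kinases and adaptor proteins. After activation some become plasma cells, which devote most of their protein synthesis to secreted antibody. IgA is the antibody class of mucosal surfaces, and plasma cells that make it have been described in chronically inflamed liver of mice and humans. In bulk liver RNA, fewer cells of a type and less RNA per cell cannot be told apart.

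All values are log2 expression values, so a difference of 1 is a doubling, and levels of different genes are not set against each other. The title numbers of the mice fall into runs that differ in clock genes. Dbp, a clock output gene, lay between 5.04 and 6.19 in the controls and mice 76 to 82 and between 8.79 and 9.27 in mice 83 to 94. Vehicle mice are 76 to 81 and 92 to 94, and nintedanib mice are 82 and 83 to 91, so run and treatment overlap in part. The labels give no batch or hour of death. The arrays of mice 89 and 91 had medians of 3.05 and 3.09, against 2.83 to 2.96 in the other arrays. Of 11 hepatocyte markers only Tat, an enzyme of tyrosine breakdown, was measured, and it lay between 10.2 and 11.2 in all mice.

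Igha encodes the heavy chain constant region of IgA (chr12:113256204-113260236 of the GRCm38.p6 build). Its level was 4.84, 4.61 and 4.26 in control mice 4, 49 and 50. In vehicle mice it was 5.51 at the lowest, 5.64 at the median and 6.99 at the highest, and in nintedanib mice 4.62, 5.19 and 5.62. Every vehicle mouse lay above every control. The order was control, nintedanib, vehicle: 9 of 10 nintedanib mice lay below every vehicle mouse, mouse 86 being the exception, and 9 of 10 lay above every control, mouse 89 being the exception. Group means were 4.57 ± 0.29 (SD, n = 3), 5.94 ± 0.52 (SD, n = 9) and 5.16 ± 0.31 (SD, n = 10) in control, vehicle and nintedanib mice. The vehicle mean was 2.57-fold the control mean.

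Igkc encodes the constant region of the kappa light chain, the light chain of most mouse antibodies (chr6:70726435-70726754). Its level was 6.31, 6.42 and 6.23 in controls 4, 49 and 50. Vehicle mice ran from 6.38 through a median of 7.47 to 8.30, and nintedanib mice from 6.11 through 6.58 to 7.09. The order was again control, nintedanib, vehicle, and neighbouring groups overlapped: 8 of 9 vehicle mice lay above every control, mouse 94 being the exception. The controls differed by only 0.19 from lowest to highest, whereas vehicle mice spread over 1.91, a 3.76-fold range.

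Jchain encodes the joining chain, which links IgA into dimers and IgM into pentamers for transport across epithelia (chr5:88519809-88527897). It measured 3.93, 4.11 and 3.52 in controls 4, 49 and 50. Vehicle mice ran from 4.07 through a median of 5.01 to 5.49, and nintedanib mice from 3.64 through 4.23 to 4.76. Here too 8 of 9 vehicle mice lay above every control, with mouse 94 as the exception, and the nintedanib range took in 2 of the 3 controls. In the plot of antibody chain genes by mouse, mouse 94 is the lowest vehicle mouse for Igkc, Jchain and Ighm and the second lowest for Igha (5.52).

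Ighm encodes the heavy chain constant region of IgM, the class that naive B cells carry (chr12:113418826-113422730). It measured 5.65, 6.12 and 5.87 in controls 4, 49 and 50. Vehicle mice ran from 4.97 through 5.97 to 6.91, and nintedanib mice from 5.14 through 5.39 to 6.48. The 3 groups overlapped: 4 of 9 vehicle mice lay above every control and 2 of 9 below every control. Unlike for the other antibody chains of the set, the means of control (5.88 ± 0.23, SD, n = 3) and vehicle mice (6.00 ± 0.66, SD, n = 9) were closer than their spread. Probes for constant regions of related antibody chains may share sequence, and how far these probe sets take up RNA of each other's genes was not tested.

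**Figure D1:**
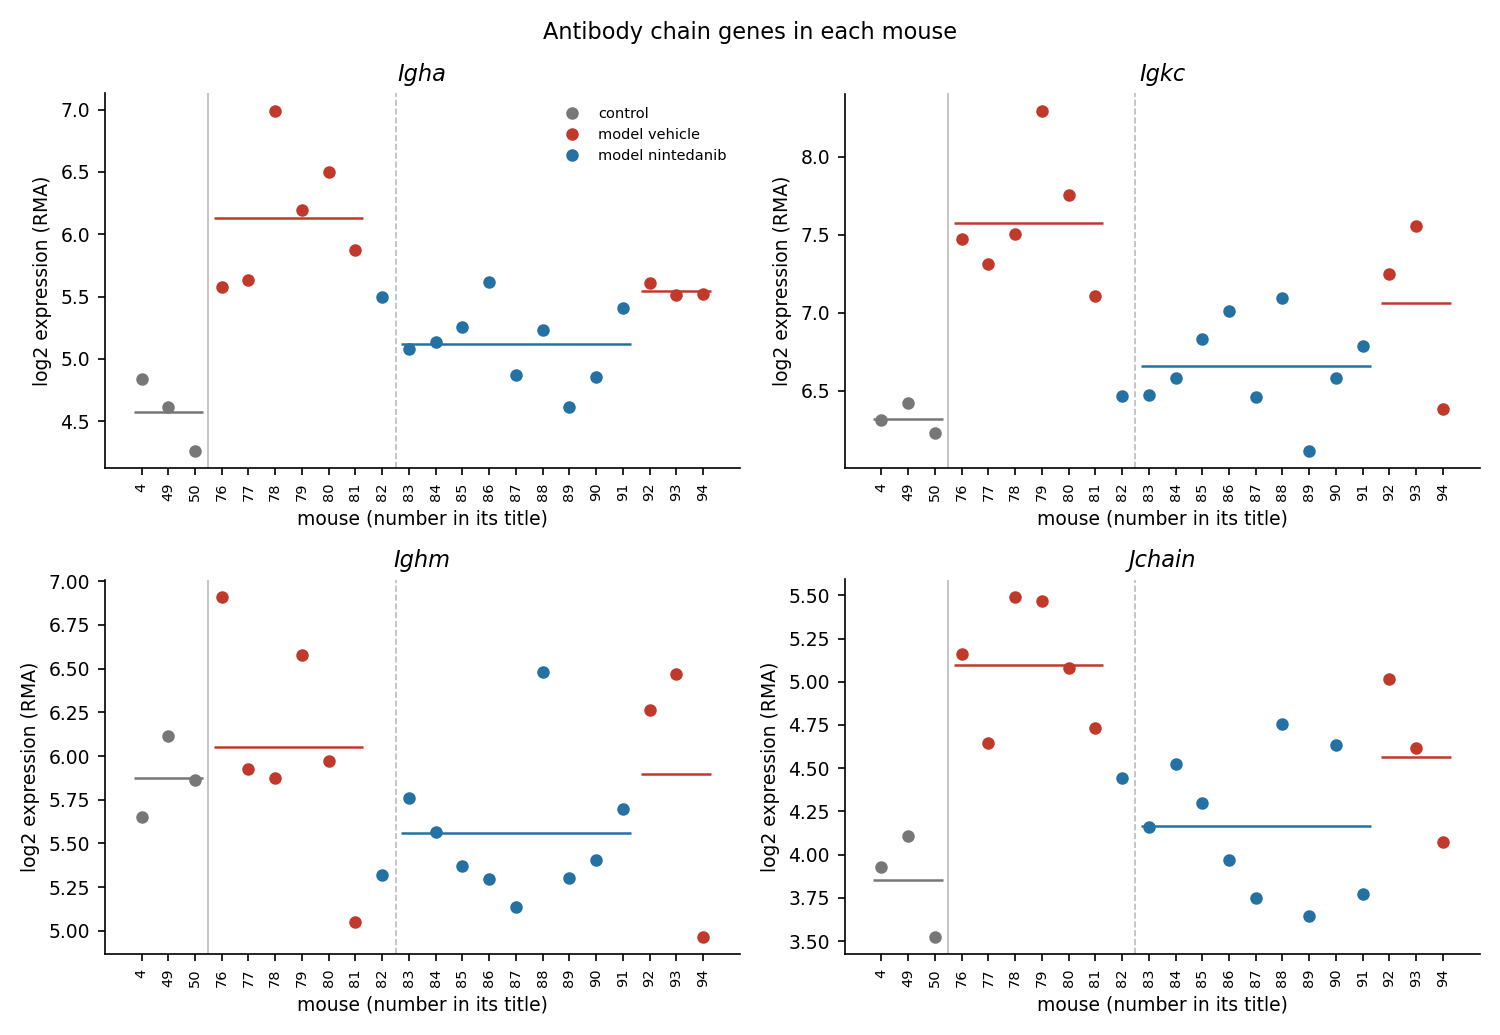
Log2 expression of Igha, Igkc, Ighm and Jchain (vertical axes) in each mouse, ordered by title number, with lines at the mean of each group within its run; the solid vertical line separates the controls from the model mice and the dashed line mice 82 and 83. For Igha all 9 vehicle mice lie above all 3 controls, while for Ighm the groups overlap.

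The signalling genes were ordered differently. Blnk encodes the adaptor that carries the B cell receptor signal from the kinase Syk to phospholipase C gamma 2, and in mice macrophages make it too (chr19:40928927-40994221). It measured 4.83, 4.55 and 3.94 in controls 4, 49 and 50. Vehicle mice ran from 5.08 through 5.34 to 6.45, and nintedanib mice from 4.89 through 5.34 to 5.86. Every model mouse, treated or not, lay above every control, and the medians of the model groups were equal to 2 decimals. Cd79b encodes 1 of the signalling subunits of the B cell receptor (chr11:106311341-106314562). It measured 3.68, 4.59 and 3.91 in controls 4, 49 and 50, 3.94 to 4.94 in vehicle mice (median 4.20) and 3.51 to 4.35 in nintedanib mice (median 4.03). All 3 groups overlapped, and control 49 stood higher than 7 of 9 vehicle mice.

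Pou2af1 encodes a coactivator that B cells use with the transcription factors Oct-1 and Oct-2 at the octamer motif of antibody gene promoters, and that mice need to form germinal centres (chr9:51213690-51240079). It measured 1.97, 2.35 and 2.08 in controls 4, 49 and 50. Vehicle mice ran from 2.48 through 2.70 to 3.08, and nintedanib mice from 2.55 through 2.75 to 3.33. Every model mouse again lay above every control. This gene was dim: it lay below the median of its own array in 16 of 22 arrays, whereas the other 6 members lay above it in all 22. RMA compresses differences at such levels.

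**Figure D2:**
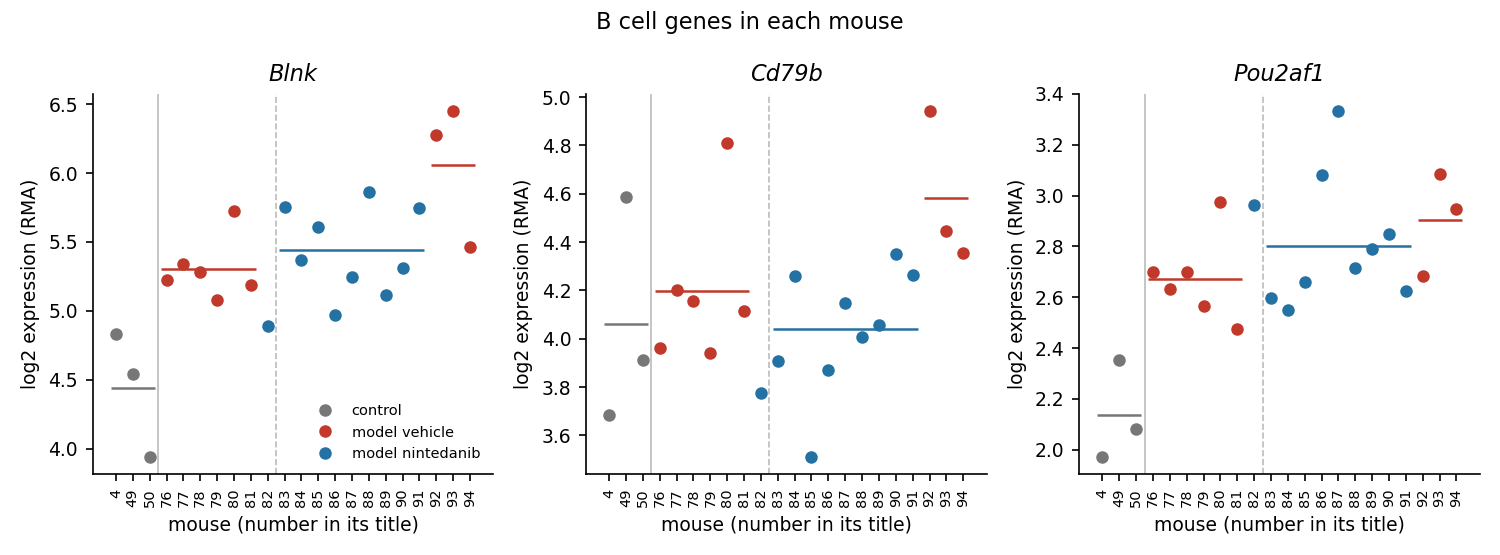
Log2 expression of Blnk, Cd79b and Pou2af1 (vertical axes) in each mouse, ordered by title number, with lines at the mean of each group within its run; the vertical lines are as in the plot of antibody chain genes. All 19 model mice lie above all 3 controls for Blnk and Pou2af1, and the groups overlap for Cd79b.

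Sequence upstream of the members was read from RefSeq promoter windows (GRCm38.p6), each 300 bases on the gene's own strand, of which the last 50 lie past the gene's start. Windows were held for Jchain, Blnk, Pou2af1 and Cd79a, so for 3 of the 7 measured members, which are shown because the octamer is the motif through which Pou2af1 acts. The octamer (ATGCAAAT, or ATTTGCAT on the other strand) is in capitals where it occurs.
Jchain promoter, chr5:88527848-88528147, minus strand: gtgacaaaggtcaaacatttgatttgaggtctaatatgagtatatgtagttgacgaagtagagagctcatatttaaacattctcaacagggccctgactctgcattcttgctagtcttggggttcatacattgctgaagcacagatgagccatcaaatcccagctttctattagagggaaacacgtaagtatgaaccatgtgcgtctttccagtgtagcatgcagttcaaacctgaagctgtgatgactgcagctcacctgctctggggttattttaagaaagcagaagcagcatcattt
Blnk promoter, chr19:40994172-40994471, minus strand: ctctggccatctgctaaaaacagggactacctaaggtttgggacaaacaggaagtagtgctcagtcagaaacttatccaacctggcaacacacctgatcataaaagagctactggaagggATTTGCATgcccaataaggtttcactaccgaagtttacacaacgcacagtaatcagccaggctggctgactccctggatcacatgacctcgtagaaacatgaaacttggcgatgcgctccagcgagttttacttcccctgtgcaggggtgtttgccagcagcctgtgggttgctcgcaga
Pou2af1 promoter, chr9:51213440-51213739, plus strand: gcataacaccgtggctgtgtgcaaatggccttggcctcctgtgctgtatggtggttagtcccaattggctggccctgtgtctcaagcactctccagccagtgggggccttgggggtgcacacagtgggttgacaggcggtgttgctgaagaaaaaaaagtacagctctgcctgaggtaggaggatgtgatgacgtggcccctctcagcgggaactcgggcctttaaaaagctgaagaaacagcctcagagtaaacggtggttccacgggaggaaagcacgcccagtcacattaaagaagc
The octamer occurred in the Blnk window, 130 bases before the gene's start and on the other strand, and in none of the other 3 windows. Of all 32851 promoter windows in the table, 1.74% hold it. The letters GAGGAA, searched here as an ETS motif, or TTCCTC on the other strand, occurred in the Pou2af1 window and in that of Cd79a. They occurred in 28.3% of all windows. The EBF core CCCNNGGG, the same on both strands, was in none of the 4 windows and in 13.7% of all. These matches describe letters and not binding sites, and neither GAGGAA nor CCCNNGGG occurred in the Blnk window beside the octamer. Shorter or other ETS motifs were not searched, and the letters GGAA do occur in the Jchain, Blnk and Pou2af1 windows.

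With all 22 arrays fitted together in limma, model vehicle liver against control gave a difference of 1.36 ± 0.25 (SE) for Igha, 1.09 ± 0.24 for Igkc and 1.07 ± 0.25 for Jchain. The difference was 1.12 ± 0.26 for Blnk and 0.61 ± 0.15 for Pou2af1. For Cd79b it was 0.26 ± 0.20 and for Ighm 0.12 ± 0.30, neither past the threshold used here. Past an adjusted p of 0.05 over all genes there were 5 of 7 members, all higher, where 1.55% of all genes passed as higher and 0.971% as lower. For 3 of 7 members, Igha, Blnk and Pou2af1, the groups did not overlap, against 2.49% of all genes with vehicle higher. The set was drawn up from this contrast, so nothing is read from these shares. The median over the members was 1.07, beside -0.02 over all genes.

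The 3 controls limit this comparison. Without control 4, Igkc, Jchain and Pou2af1 no longer passed, and without control 50 neither these 3 nor Blnk did. Over 20 alternatives (other scalings, filters and ways to treat the runs, and 1 mouse left out at a time) the difference of Igha lay between 1.21 and 1.56. Within the run that the controls resemble in clock genes, vehicle mice 76 to 81 exceeded the controls by 1.56 for Igha, 1.25 for Igkc, 1.24 for Jchain and 0.87 for Blnk. These 4 of 7 passed there, where 1.52% of all genes passed as higher, and Pou2af1 did not, at 0.54. For Igha, Igkc, Jchain, Blnk and Pou2af1, 5 of 7 members, all 6 of these vehicle mice lay above all controls, against 3.91% of all genes.

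Nintedanib against vehicle gave a difference of -0.78 ± 0.17 (SE) for Igha, -0.76 ± 0.16 for Igkc and -0.73 ± 0.17 for Jchain. In linear terms the vehicle means of these genes were 1.71, 1.70 and 1.65 times the nintedanib means. All 10 nintedanib mice lay below the mean of all vehicle mice for each of the 3 genes. Against the mean of vehicle mice 92 to 94 alone, 1 of 9 nintedanib mice 83 to 91 lay above it for Igha, 1 for Igkc and 2 for Jchain. For how many of all genes this holds was not counted. The differences were -0.47 ± 0.21 for Ighm, -0.31 ± 0.14 for Cd79b, -0.17 ± 0.18 for Blnk and 0.07 ± 0.10 for Pou2af1. Past the threshold were 3 of 7 members, all lower, where 0.276% of all genes passed as lower and 0.411% as higher. Again the set was drawn up from this contrast, and nothing is read from the share. The members' median was -0.47, beside 0.01 over all genes.

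These 3 calls were lost under several alternatives. The parts of the runs, of fewer mice and of larger standard errors in this were not tested. With the run of title numbers as a block, the differences were -0.48 ± 0.19 (SE) for Igha, -0.60 ± 0.20 for Igkc and -0.47 ± 0.20 for Jchain. None of the 7 members passed there, where 0 of 13392 genes passed as lower, so nothing is read from that count. Within mice 83 to 94 alone, 9 nintedanib against 3 vehicle mice, the differences were -0.43 ± 0.23 (SE), -0.41 ± 0.23 and -0.40 ± 0.24. Again none passed, where 1 of 13392 genes passed as lower. Without arrays 89 and 91 the differences were -0.74, -0.72 and -0.60, with none passing, where 22 of 13392 genes passed as lower. Leaving out 1 mouse at a time, the call was kept in 12 of 19 cases for Igha, 16 of 19 for Igkc and 5 of 19 for Jchain, with differences between -0.89 and -0.65 over the 3 genes. Igha lost it without mouse 79, 80, 81, 84, 87, 89 or 90, and Igkc without mouse 76, 78 or 80. Jchain kept it only without mouse 82, 88, 90, 93 or 94, and it also lost it with arrays centred on their medians or with the 2 groups fitted alone.

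Blnk and Cd79b went the other way under the same choices. Their difference between nintedanib and vehicle mice was -0.17 and -0.31 over all mice, -0.56 and -0.51 with the run as a block, and -0.62 and -0.54 within mice 83 to 94. Neither passed in any of 27 alternatives. For Cd79b all 9 nintedanib mice 83 to 91 lay below all 3 vehicle mice 92 to 94, which held for 1 of 7 members and for 0.500% of all genes. Pou2af1 differed by 0.07 over all mice and by -0.10 within mice 83 to 94, so its sign turned.

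**Figure D3:**
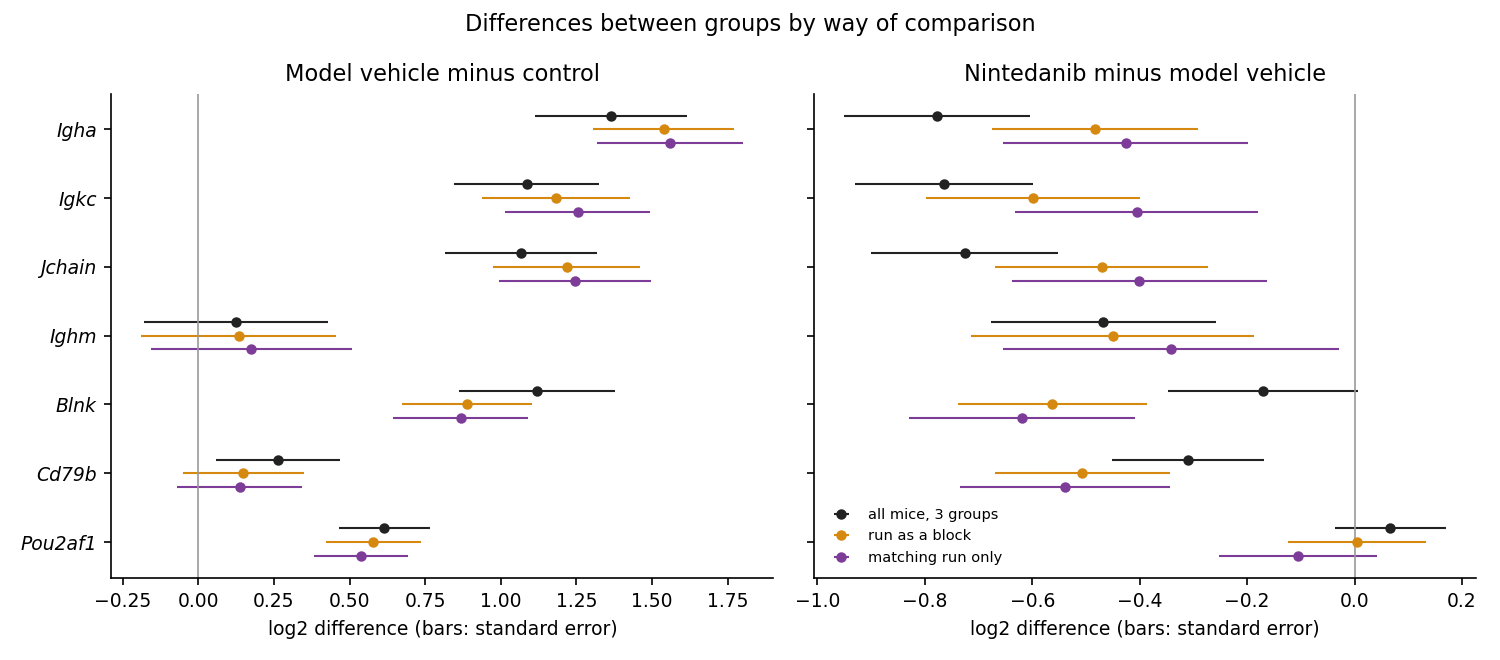
Log2 difference (horizontal axes, bars show the standard error) of each member between model vehicle and control mice, left, and between nintedanib and vehicle mice, right, over all mice, with the run of title numbers as a block, and within the matching run alone. Igha, Igkc and Jchain are nearer 0 on the right once runs are matched (-0.78 against -0.43 for Igha), and Blnk and Cd79b are farther from 0.

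The vehicle mice of the separate runs can be set side by side. Vehicle mice 76 to 81 had means of 6.13 ± 0.55 for Igha, 7.57 ± 0.41 for Igkc and 5.10 ± 0.36 for Jchain (SD, n = 6). Vehicle mice 92 to 94 had 5.55 ± 0.05, 7.06 ± 0.61 and 4.57 ± 0.47 (SD, n = 3). The differences, second run minus first, were -0.58, -0.51 and -0.53. Blnk went the opposite way, at 5.31 ± 0.22 in the first run and 6.06 ± 0.53 in the second. In nintedanib mice 83 to 91 the means were 5.12 ± 0.31 for Igha, 6.66 ± 0.30 for Igkc, 4.17 ± 0.41 for Jchain and 5.44 ± 0.31 for Blnk (SD, n = 9). Mouse 82, the 1 nintedanib mouse of the first run, measured 5.50, 6.47, 4.44 and 4.89 for these 4 genes, 3.78 for Cd79b, 5.32 for Ighm and 2.96 for Pou2af1. It lay below each of vehicle mice 76 to 81 for 5 of 7 members, as it did for 16.0% of all genes. For Ighm vehicle mouse 81 was lower, and for Pou2af1 mouse 82 lay above 5 of these 6 vehicle mice. In the test of whether the treatment difference varied between runs, 0 of 13392 genes passed in limma, with 561 at an unadjusted p under 0.05. That test rests on 1 nintedanib mouse in the first run.

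Nintedanib against control used the same control and nintedanib mice as the comparisons above. Blnk was higher by 0.95 ± 0.25 (SE) and Pou2af1 by 0.68 ± 0.15, and these 2 of 7 members passed, where 2.87% of all genes passed as higher. Their groups did not overlap, against 2.47% of all genes. The differences were 0.59 ± 0.25 for Igha, 0.34 ± 0.25 for Jchain and 0.32 ± 0.24 for Igkc. For Ighm and Cd79b they were -0.34 ± 0.30 and -0.05 ± 0.20. With the run as a block, Blnk stood at 0.33, Pou2af1 at 0.58, Igha at 1.05 and Jchain at 0.75. None of the 7 members passed there, where 142 of 13392 genes passed as higher. The block places the controls with mice 76 to 82 by their clock gene levels alone, since the labels give them no run, and all but 1 of the nintedanib mice fall in the other run. Blnk also lost its call without control 49 or 50, and Pou2af1 without control 4.

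Variation from mouse to mouse inside a group was tested apart from the group differences, over the 21 pairs of members. In nintedanib mice 83 to 91 (n = 9), Igha and Igkc had Pearson r = 0.853 (exact permutation p = 0.00418, adjusted 0.0643) and Spearman rho = 0.783 (adjusted exact p = 0.181). Without the 2 mice farthest from the median of Igha, r was 0.665. Blnk and Ighm had r = 0.769 (exact permutation p = 0.00613, adjusted 0.0643) and rho = 0.900 (adjusted exact p = 0.0426), with r = 0.783 without 2 mice. So 0 of 21 pairs passed by Pearson r after adjustment, 2 had an unadjusted exact p under 0.05, and 1 passed by rho. With arrays centred on their medians 2 pairs passed, and without mouse 88 1 pair did. Without arrays 89 and 91 the highest r was 0.771 and the lowest adjusted exact p 0.375, and without mouse 89 alone they were 0.756 and 0.342.

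In vehicle mice 76 to 81 (n = 6) other pairs stood out. Blnk and Cd79b had r = 0.973 (exact permutation p = 0.00972, adjusted 0.204) and rho = 0.943, but r = 0.650 without 2 mice. Blnk and Pou2af1 had r = 0.896 (exact permutation p = 0.0319, adjusted 0.335). Mouse 80 was the highest of the 6 for all 3 genes, at 5.72, 4.81 and 2.97. Igha and Igkc had r = 0.320 there, with rho = 0.543 and r = 0.725 without 2 mice. Blnk and Ighm had r = -0.15, with rho = -0.09 and r = 0.17 without 2 mice. With 6 mice, this set cannot tell whether the pairs of the nintedanib mice recur. None of the 21 pairs passed in this set.

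**Figure D4:**
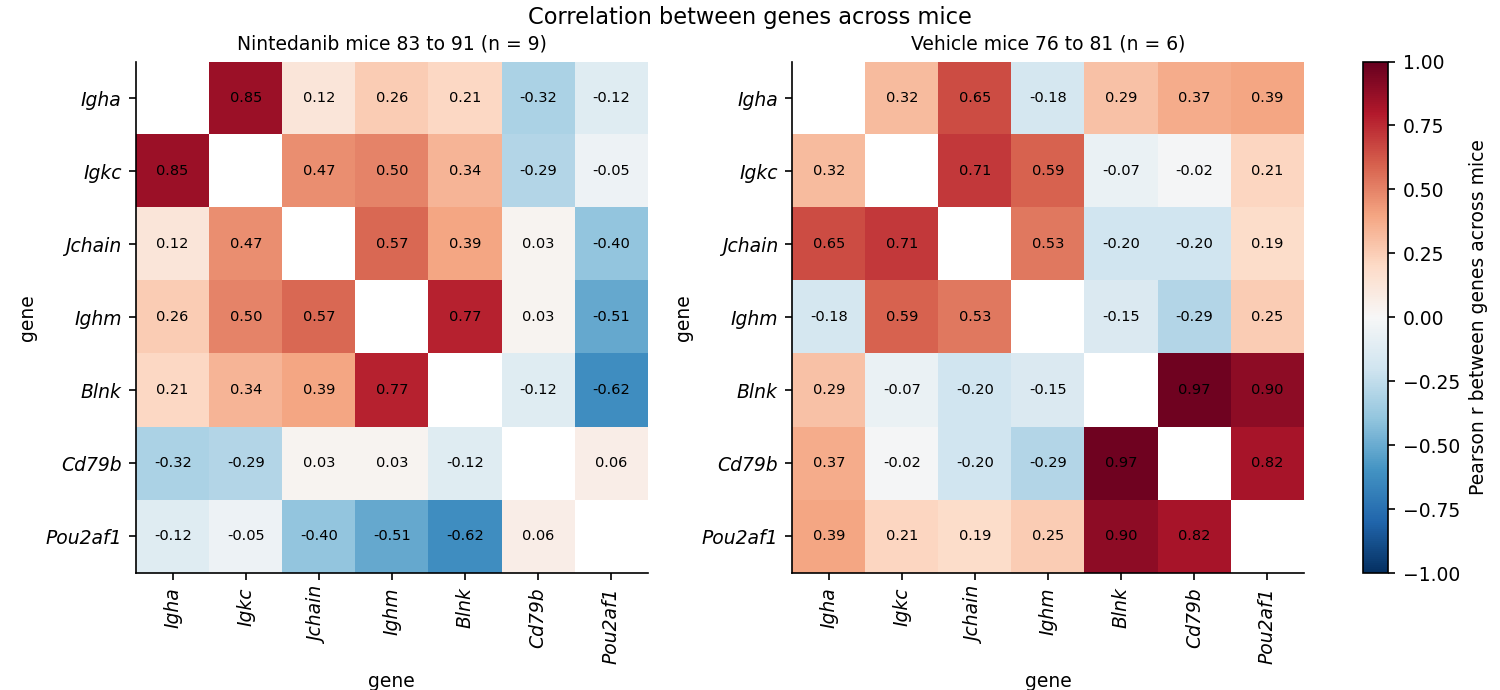
Pearson r between each pair of members across mice (colour and printed value, genes on both axes) in nintedanib mice 83 to 91, left, and in vehicle mice 76 to 81, right. Igha with Igkc (0.85) and Blnk with Ighm (0.77) are highest on the left, and the pairs among Blnk, Cd79b and Pou2af1 on the right.

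Deviations from the mean of group and run, over 21 arrays without mouse 82, describe all groups at once. Igkc went with Ighm (r = 0.679) and with Jchain (0.599), and Jchain with Ighm (0.582). Igha went less with Igkc (0.435) and Jchain (0.371), and not with Ighm (-0.02). These points share arrays and normalisation, so they are given without a p. Blnk had a median r of 0.320 with 11 macrophage and monocyte markers, positive for all 11, and of 0.504 with 9 leukocyte markers. Its median r was 0.10 with 26 B cell identity genes, positive for 17. Ighm likewise had a median r of 0.427 with the macrophage markers, positive for all 11, and of 0.0639 with the B cell identity genes. For Cd79b the median was 0.150 with 25 B cell identity genes and 0.0323 with the macrophage markers, positive for 6 of 11, while it was 0.316 with the leukocyte markers, positive for all 9. Igkc had a median of 0.218 with the macrophage markers, positive for all 11, 0.379 with the leukocyte markers and -0.001 with the B cell identity genes. For Igha, Jchain and Pou2af1 the macrophage medians were 0.0007, 0.174 and 0.161, positive for 6, 10 and 9 of 11. With 12 genes of the plasma cell programme and antibody secretion, the medians were 0.134 for Igha, 0.029 for Igkc, 0.085 for Ighm and 0.008 for Jchain. These were positive for 10, 7, 8 and 6 of the 12. With the antibody chain genes, other members included, the medians were 0.269 for Blnk, 0.330 for Ighm, 0.347 for Igkc and 0.058 for Cd79b. The B cell identity genes outside the members lay near the array medians, with group means of 2.86 to 2.96. How far such low signal lowers r was not tested. With the B cell receptor signalling genes Blnk and Cd79b had like medians, 0.226 and 0.227.

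The genes most like each member in these deviations had r between 0.678 and 0.828, and 20 of the 35 had mean levels below every array median. They were picked for the highest r in the whole table, a choice that gives high r by itself, and were not tested. Ighm was closest to Cd68, a lysosomal protein of macrophages (0.768), then to Pla2g7, Angptl7, Cdk20 and Rpap1. Igkc was closest to Snx20 (0.818), then to Patl2, Rhoj, C3ar1 and Cthrc1. C3ar1 encodes the receptor for complement fragment C3a. Igha was closest to Mrm3 (0.739), then to Cmtm2b, Kera, Ttc23l and Sult4a1. Among the genes close to Jchain were Unc13d (0.749), Smc2, Col4a3 and Il33. Blnk was closest to Acad10 (0.732), then to Odf3, Pimreg, Hacd4 and Ifi30. Cd79b was closest to Capza3 (0.828) and then Cylc1, Trpc1, Tcap and Wsb1, and Pou2af1 to Cacna2d3 (0.778) and then Me3, Ceacam12, Lrriq4 and Ctnna2. Without arrays 89 and 91 only 14 of the 35 stayed among the closest 5, of which 4 were those of Ighm and none those of Jchain.

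Other genes of the pathway were taken from 6 wider lists and tested in the same limma fit, with p-values adjusted by Benjamini-Hochberg over all genes. In vehicle against control liver none of 7 other antibody chain genes passed, and their median difference was 0.22. Iglc2, a lambda light chain constant region, differed by 1.13 ± 0.47 (SE, adjusted p = 0.244), and Ighg2b, an IgG heavy chain, by 0.36 ± 0.20 (adjusted p = 0.426). Of 24 other B cell identity genes 1 rose and none fell, with a median of 0.06. Their differences were positive for 13 and negative for 11, and ran from -0.59 to 0.75. Ms4a1, which encodes the B cell surface protein CD20, rose by 0.75 ± 0.20 (adjusted p = 0.0465). It passed in 6 of 20 alternatives, with adjusted p between 0.0246 and 0.275. It did not pass with the run as a block, nor without control 4 or 49 or any 1 of vehicle mice 76 to 79 and 92 to 94. Cd22, an inhibitory B cell receptor, differed by 0.41 ± 0.13 (adjusted p = 0.102).

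Of 13 other B cell receptor signalling genes 1 rose and none fell, with a median of 0.13. Plcg2, the phospholipase that acts next after Blnk and is also found in macrophages, rose by 0.77 ± 0.17 (adjusted p = 0.00900). It kept its call in 19 of 20 alternatives, losing it without control 49 (adjusted p = 0.0699). Its level was 4.07, 4.07 and 3.77 in the controls as ranked from high to low and 4.42 to 5.08 in vehicle mice, which did not overlap. Pik3ap1, an adaptor for phosphoinositide 3-kinase, differed by 0.34 ± 0.15 (adjusted p = 0.309).

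None of 12 genes of the plasma cell programme and antibody secretion passed, with a median of 0.02, and 6 of the 12 differences were negative. Which cells of the liver gave the RNA of these genes was not tested. Slamf7, a surface receptor of plasma cells and natural killer cells, differed by 0.59 ± 0.17 (adjusted p = 0.0673, 0.0286 to 0.297 over 20 alternatives), and passed in 5 of the alternatives, among them without mouse 76. Mzb1, a chaperone for antibody assembly, differed by 0.51 ± 0.15 (adjusted p = 0.0750, 0.0383 to 0.387 over the alternatives), and passed with the run as a block and without mouse 93. None of 7 antibody receptor and transport genes passed either, with a median of 0.06. Fcer1g, the signalling chain of several antibody receptors, differed by 0.58 ± 0.18 (adjusted p = 0.0881), and passed within the first run alone, with the run as a block and without mouse 94 (lowest adjusted p = 0.0102). Fcamr, a receptor for IgA and IgM, differed by -0.40 ± 0.15 (adjusted p = 0.204). Of 17 survival and homing genes none passed, with a median of -0.01. Ltb, encoding lymphotoxin beta, differed by 0.67 ± 0.20 (adjusted p = 0.0845, and 0.0452 without arrays 89 and 91) and the chemokine receptor gene Cxcr4 by 0.63 ± 0.25 (adjusted p = 0.207).

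In nintedanib against vehicle liver no gene of the 6 lists outside the members passed in limma, in either direction, in all mice or in any alternative. In all mice the medians were -0.18 for antibody chains, -0.10 for B cell identity and -0.03 for signalling. They were -0.07 for the plasma cell programme, -0.04 for antibody receptors and -0.01 for survival and homing. Within the matching run alone the medians were 0.03, -0.10, 0.004, -0.07, 0.05 and 0.03 in the same order. For antibody chains 4 of 7 differences were positive there. With the run as a block the antibody chain median was -0.15, and 6 of 7 differences were negative. Over all mice 9 of the 80 list genes outside the members had an unadjusted limma p under 0.05. So did 1417 of all 13392 genes, and nothing is read from the count. Ms4a1 (-0.43 ± 0.14 SE, adjusted p = 0.177) and Ccr6 (-0.39 ± 0.15, adjusted p = 0.280), a homing receptor, had the smallest p among B cell identity genes. Ighg2b differed by -0.31 ± 0.13 (adjusted p = 0.398) and Iglc2 by -0.63 ± 0.32 (adjusted p = 0.506). Plcg2 differed by -0.24 ± 0.11 (adjusted p = 0.472) and Prkcb, a kinase that acts after the B cell receptor, by -0.28 ± 0.13 (adjusted p = 0.472).

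In the plasma cell list Creld2, a protein of the endoplasmic reticulum, differed by -0.51 ± 0.22 (SE, adjusted p = 0.398) and Slamf7 by -0.26 ± 0.12 (adjusted p = 0.420). The intracellular antibody receptor gene Trim21 differed by -0.14 ± 0.09 (adjusted p = 0.630) and Fcgr1, a receptor for IgG, by -0.08 ± 0.09 (adjusted p = 0.833). Cxcl13, the chemokine that draws B cells into follicles, differed by -1.22 ± 0.43 (adjusted p = 0.231) and Ltb by -0.28 ± 0.14 (adjusted p = 0.486). Cxcl13 measured 4.77, 5.39 and 5.21 in the controls 4, 49 and 50, 3.18 to 8.63 in vehicle mice (median 4.24) and 3.15 to 4.23 in nintedanib mice (median 3.45). Every nintedanib mouse and 7 of 9 vehicle mice lay below every control, and within mice 83 to 94 the difference from vehicle was -0.25.

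Vehicle mouse 80 stood apart for several of these genes. It measured 8.63 for Cxcl13, where the next vehicle mouse had 5.56. It measured 4.56 for Ms4a1 against 3.83 in the next, and 6.02 for Prkcb against 5.06. Among vehicle mice 76 to 81 it was also the highest for Blnk, Cd79b and Pou2af1. It was not the highest for the antibody chains: mouse 78 had the most Igha (6.99) and mouse 79 the most Igkc (8.30).

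**Figure D5:**
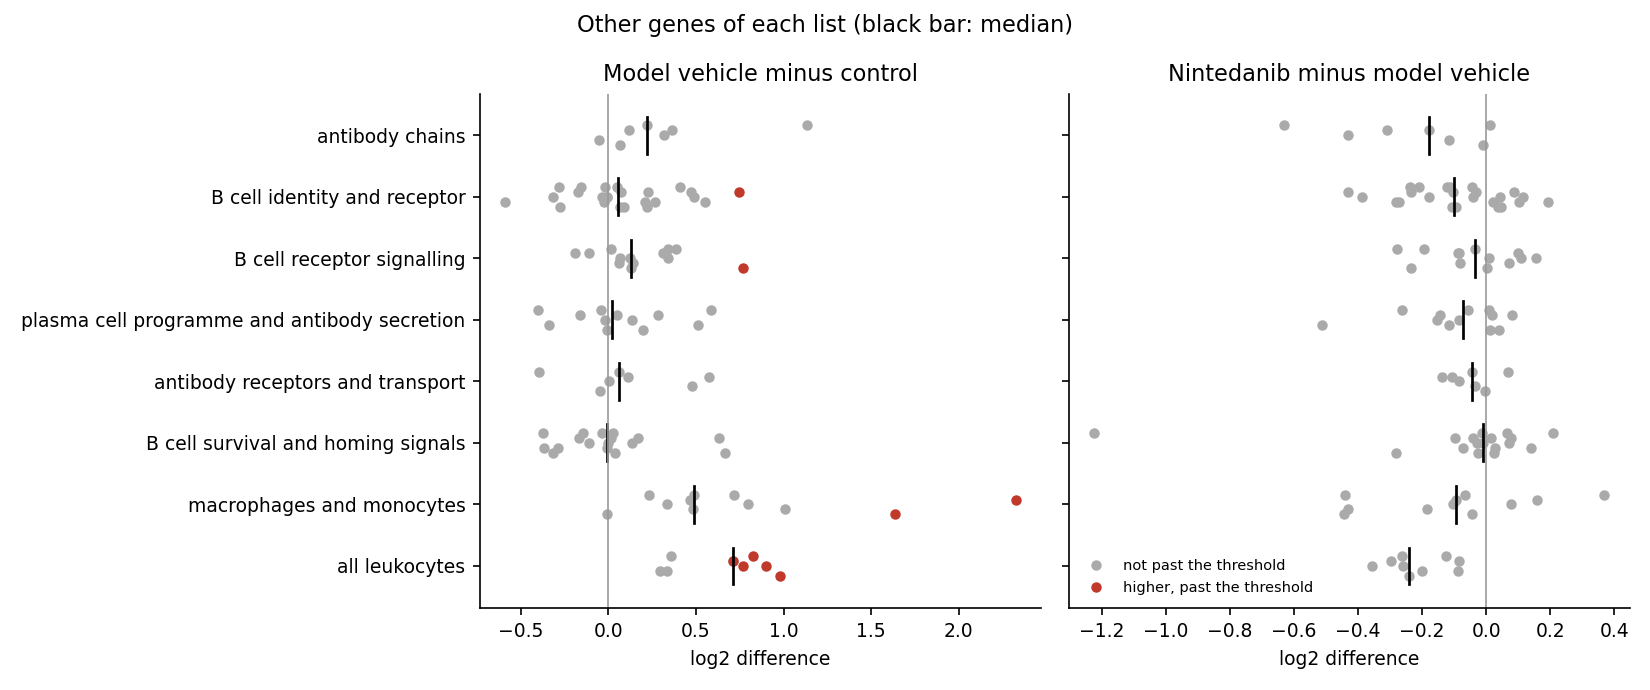
Log2 difference (horizontal axes) of each gene outside the member set in 6 lists and in the macrophage and leukocyte markers (vertical axes), for vehicle against control, left, and nintedanib against vehicle, right; black bars are medians and red points passed an adjusted p of 0.05. Points passed on the left only, 5 of 9 leukocyte markers, 2 of 11 macrophage markers, Ms4a1 and Plcg2.

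Markers of other cells moved in the same comparison as the members. Of 9 leukocyte markers 5 rose in vehicle against control liver and none fell, with a median of 0.71, among them Coro1a by 0.98 ± 0.17 (SE, adjusted p = 0.00143) and Laptm5 by 0.71 ± 0.14 (adjusted p = 0.00540). Of the 5, only Coro1a still passed without control 50, and only Coro1a and Laptm5 without control 4. Their mean level was 5.07 to 5.40 in controls, 5.52 to 6.54 in vehicle mice and 5.43 to 5.88 in nintedanib mice. Of 11 macrophage and monocyte markers 2 rose, Gpnmb by 2.33 ± 0.33 (adjusted p = 0.000103) and Ms4a7 by 1.64 ± 0.30 (adjusted p = 0.00196), and their mean level was 4.35 to 4.56, 4.88 to 5.59 and 4.79 to 5.63 in the 3 groups. None of 13 T cell markers and none of 9 dendritic cell markers passed, with medians of 0.23 and 0.15. The mean level of the 24 other B cell identity genes was 2.88 ± 0.04 (SD, n = 3) in controls, 2.96 ± 0.09 (SD, n = 9) in vehicle mice and 2.86 ± 0.10 (SD, n = 10) in nintedanib mice, near the array medians. In nintedanib against vehicle liver none of these markers passed. In all mice all 9 leukocyte markers had negative differences (median -0.24), and the macrophage median was -0.09. With the run as a block 7 of 9 leukocyte markers were negative (median -0.09), and the macrophage median was -0.02. Within the matching run alone 5 leukocyte markers were negative and 4 positive (median -0.03), and the macrophage median was -0.12. The part of leukocyte and macrophage content in the members' differences was not tested.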

How the data were processed

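Liver RNA of 22 mice was measured on Affymetrix HT MG-430 arrays. Values were deposited on the log2 scale. The series' design text states that the authors ran robust multiarray averaging (RMA) with a custom definition of probe sets by Entrez gene. RMA equalises the arrays' distributions and so hides a shift shared by all genes. No software version is stated in the labels.

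Symbols and positions come from the RefSeq gene table of GRCm38.p6, which named 13242 of 13392 genes. The 3 group means were estimated from all 22 arrays (limma 3.58.1 under R 4.3.3, functions lmFit and eBayes, 19 residual degrees of freedom). Its 2-sided p-values received Benjamini-Hochberg adjustment across the whole table, and 0.05 was the threshold. No low values were filtered. The script was tested on simulated data. A fit of 5 means (group within run, 17 residual degrees of freedom) gave values by run. Correlations used exact permutation of pairings, adjusted over 21 pairs.

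The members and the gene lists were chosen with earlier results of these data known, and so were the boundary between mice 82 and 83 and the placing of the controls. Genes named from the lists are those that passed and otherwise the 2 with the smallest p in each of the first 2 comparisons. The 5 genes most like each member exclude clone names. For Jchain, 1 gene under this rule is not reported here. The members' protein sequences were not analysed here. Alternatives were the run as a block, the matching run alone, arrays 89 and 91 left out, median centring, repeated quantile normalisation, a filter on the dimmest 25% of genes, other variance settings, a fit of 2 groups, and each mouse left out. The number of arrays limits the precision.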

Additional observations from a re-analysis of the deposited data

Results flagged for a closer look

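Of 50 sets of 1 gene in 1 group (7 members and 18 other named genes, in the vehicle and nintedanib mice), 4 held a mouse separated from the rest of its group by more than Dixon's limit, and chance gives about 1 in 20 such sets. Nintedanib mouse 88 had 6.48 for Ighm, where the next nintedanib mouse had 5.76. Vehicle mouse 80 had 8.63 for Cxcl13, 4.56 for Ms4a1 and 6.02 for Prkcb, where the next vehicle mice had 5.56, 3.83 and 5.06. The 3 sets with mouse 80 share an array and are not separate observations.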

How the results depend on the processing

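Of 476 values of the members' differences under alternatives, 471 lay within 1 SD of the value reported, 5 moved further and none that had passed the threshold changed sign. Genes passing in vehicle against control numbered 338, and 146 to 344 with 1 mouse left out, the fewest without control 50. Genes passing in nintedanib against vehicle numbered 92, with 6 under the run as a block, 4 within the matching run, 60 without arrays 89 and 91, and 49 to 230 with 1 mouse left out. In nintedanib against control 784 passed, 244 with the run as a block and 379 to 852 with 1 mouse left out. Pairs of members past the threshold in nintedanib mice 83 to 91 numbered 0, with 2 after median centring, 1 by Spearman's rho and 0 to 1 with 1 mouse left out. No call was made in the test of treatment by run. The cause of these shifts was not tested, apart from the fewer samples that some alternatives use. No paired analysis was possible because the groups share no replicate numbers. The limits are 3 control mice, placed in a run by clock genes alone, 1 nintedanib mouse among mice 76 to 82, a low signal for Pou2af1, and no row for Cd79a.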
